A study of Mus musculus with 17 samples.

Results

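Genes for proteins that fold chromatin into loops were followed in nuclei of the mouse cortex: Yy1, Ctcf and the cohesin genes Smc1a, Smc3, Rad21, Stag1, Stag2, Nipbl, Wapl and Pds5b. These 10 genes were chosen with earlier results of these data known. They were taken by symbol from the 36293 genes of the bulk files and the 37608 genes listed in the tables of single nuclei, and all 10 were present in both. Bulk nuclear RNA-seq of the medial prefrontal cortex (mPFC) covered 4 control mice and 5 mice after chronic unpredictable stress (CUS), collected at postnatal day 90. sNucDrop-seq, which counts the RNA molecules of single nuclei as unique molecular identifiers (UMIs), covered the neocortex of 4 control and 4 CUS mice at postnatal day 80. All mice were C57BL/6 males with no transgene (C57BL/6J in the study's methods), and CUS mice received 3 stressors a day for 12 days from 9 to 10 weeks of age, whereas controls were handled gently and kept in another room, both in group housing. Tissue for sNucDrop-seq was taken 24 h after the last stressor. Per the study's methods the bulk mice went through behavioral tests first, with a spell of single housing, and were taken 24 h after the last test, whereas the labels give the time after the last stressor for both assays. As both assays differ in tissue, age and unit, levels were compared only within each of them.

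Chromatin loops form when the cohesin ring, made of SMC1A, SMC3 and the kleisin RAD21 and capped by STAG1 or STAG2, is loaded onto DNA by NIPBL and moves along it until it is stopped or released. CTCF, a zinc finger protein bound at insulators, halts the ring and so sets the ends of many loops, while WAPL, together with PDS5 proteins such as PDS5B, opens the ring and lets it go. YY1, a zinc finger transcription factor, binds active promoters and enhancers and can dimerize to bring them together.

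YY1 and CTCF act by binding short DNA motifs, so the promoters of the 10 genes were searched for both. RefSeq promoter windows on build GRCm38.p6, 250 bases before to 50 bases after the start site, were at hand for 7 of the 10 genes (Yy1, Ctcf, Smc1a, Smc3, Stag1, Wapl and Pds5b). Rad21, Stag2 and Nipbl are named only. The YY1 core AANATGGC, or GCCATNTT on the other strand, occurred in the windows of Pds5b, Ctcf, Stag1 and Smc3. It occurred in 6.05% of all 32851 windows of the same length (1988 windows). The 7 windows held 58.3 to 81.0% G and C, against a median of 52.7% over all windows. The 150 bases around each match are shown because these 4 members carry in their promoters the core that YY1 binds. Capitals mark the YY1 core, and all 4 are written on the plus strand, which is the strand of the gene.
Pds5b, chr5:150673687-150673836: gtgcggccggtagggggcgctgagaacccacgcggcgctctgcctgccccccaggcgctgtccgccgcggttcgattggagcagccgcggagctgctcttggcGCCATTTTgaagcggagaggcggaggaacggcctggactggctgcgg
Ctcf, chr8:105636408-105636557: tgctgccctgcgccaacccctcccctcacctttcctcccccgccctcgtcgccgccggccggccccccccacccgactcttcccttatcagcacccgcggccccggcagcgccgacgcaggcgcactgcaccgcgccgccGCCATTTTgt
Stag1, chr9:100643198-100643347: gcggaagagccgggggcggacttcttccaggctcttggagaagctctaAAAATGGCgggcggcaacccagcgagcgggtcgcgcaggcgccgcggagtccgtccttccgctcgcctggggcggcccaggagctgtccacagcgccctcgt
Smc3, chr19:53600266-53600415: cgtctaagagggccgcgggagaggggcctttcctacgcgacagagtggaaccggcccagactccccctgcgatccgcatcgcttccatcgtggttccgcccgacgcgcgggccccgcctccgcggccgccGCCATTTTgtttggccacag

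Counted from the RefSeq start site as 0, the YY1 core lay at -37 to -30 in Pds5b, 10 to 17 in Ctcf, -202 to -195 in Stag1 and 0 to 7 in Smc3. The windows of Yy1 itself, Smc1a and Wapl did not hold these letters. RefSeq start sites can differ from the gene starts of the bulk annotation. The Yy1 window (chr12:108793047-108793346) lies wholly inside the gene, which starts at 108792973 there. The Stag1 window begins at 100643198, inside a gene that starts at 100597798. The absence in Yy1 and the match in Stag1 thus hold for these RefSeq start sites only. The letters AGGGGGC at the heart of the CTCF motif, or GCCCCCT on the other strand, occurred in 2 of the 7 windows, clear of any YY1 core. They lay at -129 to -123 in Pds5b and at -231 to -225 and -32 to -26 in Yy1, and 10.6% of all windows held them (3486). A match of letters is a description of the sequence, and binding was not measured in these files.

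The bulk libraries held 26188825 to 30525015 reads on genes. The member genes held between 747 reads (the lowest, for Smc1a) and 8822 reads (the highest, for Stag1) in a mouse. Levels are given as CPM, the count of a gene scaled to a fixed library size, with library sizes scaled by edgeR's TMM factors. As nuclear RNA is rich in unspliced transcripts, and it is not stated whether intronic reads were counted in bulk, levels of different genes were set side by side per kilobase of gene span and of exons. The order turned with that choice. Per kb of span, which ran from 27.2 kb for Yy1 to 362 kb for Stag1, Yy1 stood first at 1.63 CPM per kb, followed by Smc3 (1.28), Ctcf (1.26), Nipbl (1.24) and Rad21 (1.08). Wapl (0.886), Pds5b (0.869), Stag2 (0.792), Stag1 (0.757) and Smc1a (0.698) lay below 1 CPM per kb. Per kb of exons in the GENCODE annotation, Stag1 (23.2) and Nipbl (20.2) stood first, and Rad21 (7.55), Yy1 (6.89) and Smc1a (5.60 CPM per kb) last. In the sNucDrop-seq, 26698 of 40000 barcodes passed the filters on genes, mitochondrial UMIs and doublet score, with 66766527 UMIs in all and a median of 2010 per nucleus. Only 20 of 26677 distinct kept barcodes occurred in more than 1 library.

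In the mPFC, no member passed the test in bulk (edgeR quasi-likelihood test, false discovery rate (FDR) of 0.05), where 3.29% of the 18394 genes tested did. Of the 10 members, 9 had a log2 fold change below 0 in CUS mice, against 48.7% of all genes tested. The median log2 fold change was -0.14 over the members and 0.0060 over all genes. The members thus leaned to lower levels without any of them reaching the threshold, as shown in the plot of the 10 genes by mouse.

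**Figure D1:**
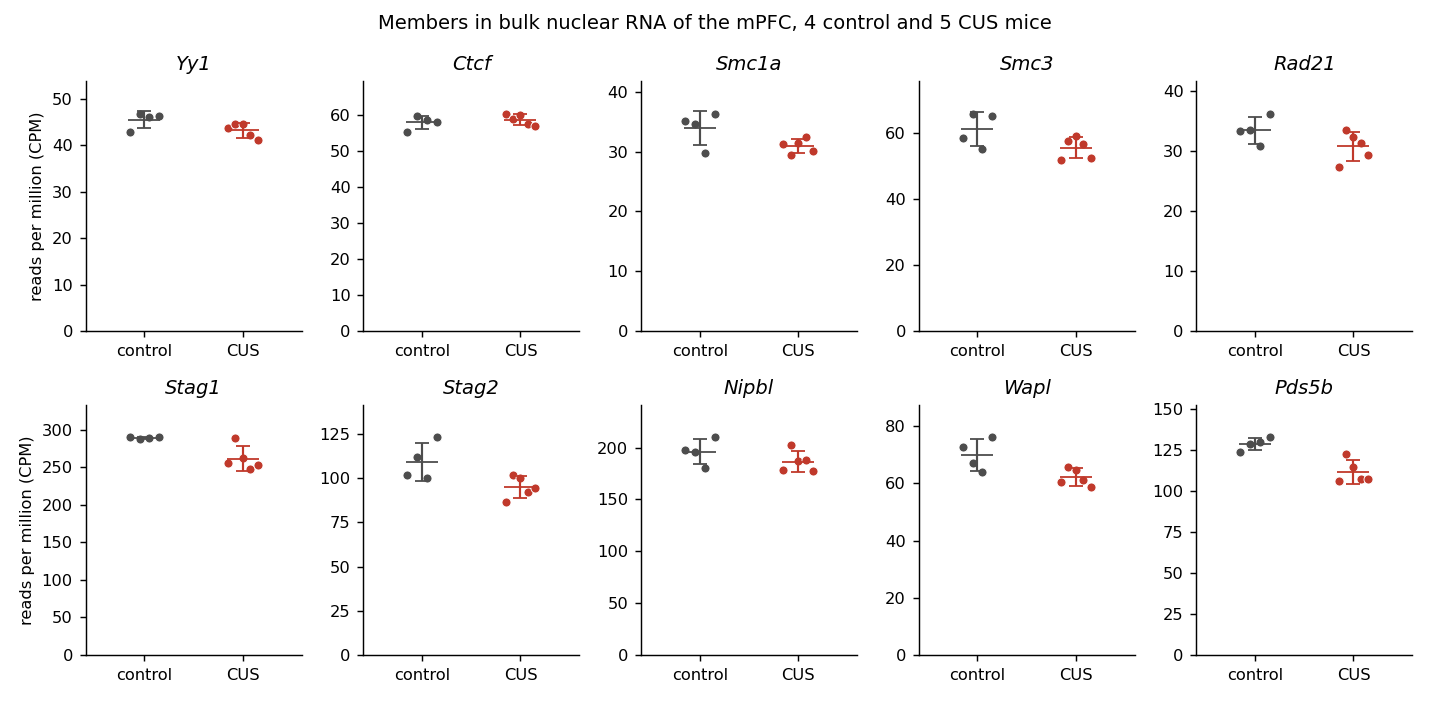
Levels of the 10 genes in bulk mPFC nuclei of each mouse, as CPM (y axes, from 0), in 4 control and 5 CUS mice; points are mice and bars the group mean with SD. The groups do not overlap for Pds5b (123.7 to 132.5 CPM in control mice, 105.7 to 122.6 in CUS mice), and they overlap for the other 9.

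Of the looping factors, Yy1 (ENSMUSG00000021264, chr12:108792973-108820148, plus strand, mm10) had 42.9, 46.8, 46.1 and 46.2 CPM in control mice 1 to 4. In CUS mice 1 to 5 it had 43.6, 44.5, 44.6, 42.1 and 41.1 CPM. All 5 CUS mice lay below the control mean, but 3 of them lay within the control range. The means were 45.5 ± 1.78 CPM (SD, n = 4) and 43.2 ± 1.56 CPM (SD, n = 5), and the log2 fold change of -0.07 (SE 0.05, FDR 0.442 in edgeR) did not pass.

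Ctcf (ENSMUSG00000005698, chr8:105636568-105682922, plus strand) had 55.3, 59.7, 58.5 and 58.0 CPM in control mice and 60.3, 58.8, 59.9, 57.5 and 56.9 CPM in CUS mice. No CUS mouse lay below the lowest control. Its log2 fold change of 0.02 (SE 0.05, edgeR FDR 0.854) was the only one above 0 among the members, and it was -0.0075 without TMM factors. The gene shares 0.826 kb with Agrp on the opposite strand, which held a mean of 637 reads against 1659 for Ctcf, and 0.918 kb with the lincRNA Gm5914, also on the opposite strand (558 reads). Whether the counting kept strands apart is not given in the sources used here, so part of the reads may belong to either partner.

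Ratios within each mouse were taken for 3 pairs of members, both looping factors, loader and release factor, and both STAG genes. The log2 ratio of Yy1 to Ctcf was -0.37, -0.35, -0.34 and -0.33 in control mice and -0.47, -0.40, -0.42, -0.45 and -0.47 in CUS mice. All 5 CUS mice lay below all 4 controls, and how often ratios of other genes did so was not counted. The means were -0.35 ± 0.017 (SD, n = 4) and -0.44 ± 0.029 (SD, n = 5), a difference of -0.094 (two-sided exact permutation test; p = 0.00794, which is the least that these group sizes allow). Over the 9 ratios tested the Benjamini-Hochberg adjusted value was 0.0714, which missed 0.05. As the pairs were chosen with earlier results of these data known, and the ratio holds the same values as each gene alone, this p is no independent support.

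None of the core ring genes passed, and each overlapped between groups. Smc1a (ENSMUSG00000041133, chrX:152016428-152062694, plus strand) had 33.9 ± 2.87 CPM in control mice and 30.95 ± 1.202 in CUS mice, and 1 CUS mouse lay below the lowest control. Smc3 (ENSMUSG00000024974, chr19:53600398-53645833, plus strand) had 61.3 ± 5.19 against 55.6 ± 3.28 CPM. Rad21 (ENSMUSG00000022314, chr15:51962240-51991747, minus strand) had 33.4 ± 2.22 against 30.8 ± 2.39 CPM. These SDs are over 4 control and 5 CUS mice, and the 3 log2 fold changes lay between -0.14 and -0.12, with edgeR FDR between 0.251 and 0.342.

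Of the STAG genes, whose products cap the ring in alternative cohesin complexes, Stag1 (ENSMUSG00000037286, chr9:100597798-100959375, plus strand) had 290.0, 287.8, 288.9 and 289.9 CPM in control mice. In CUS mice it had 255, 289.6, 262, 248 and 253 CPM. The controls were nearly alike, 4 of 5 CUS mice lay below them, and CUS mouse 2 lay among them. The log2 fold change was -0.14 (SE 0.06, FDR 0.154 in edgeR).

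Stag2 (ENSMUSG00000025862, chrX:42149317-42277185, plus strand) had 102, 112, 99.9 and 123 CPM in control mice and 86.4, 102, 100.1, 92.0 and 94.5 CPM in CUS mice. The groups overlapped, with 3 of 5 CUS mice below the lowest control, and the log2 fold change was -0.20 (SE 0.07, FDR 0.128 in edgeR). The balance between both STAG genes did not differ beyond its spread: the log2 ratio of Stag1 to Stag2 was 0.053 higher in CUS mice (exact permutation p = 0.484, adjusted 0.622).

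Nipbl (ENSMUSG00000022141, chr15:8290617-8444463, minus strand), the loader, had 198, 196, 181 and 209.95 CPM in control mice and 178, 202, 187, 188 and 177 CPM in CUS mice. These ranges largely covered each other, and its log2 fold change was -0.07 (SE 0.06, edgeR FDR 0.522). Wapl (ENSMUSG00000041408, chr14:34673928-34747983, plus strand), the release factor, had 72.7, 67.0, 63.8 and 76.1 CPM in control mice and 60.4, 65.8, 64.8, 61.0 and 58.7 CPM in CUS mice. For Wapl, 3 of 5 CUS mice lay below all controls, and the log2 fold change was -0.17 (SE 0.06, FDR 0.143 in edgeR). The log2 ratio of loader to release factor was 1.49 ± 0.045 in control and 1.59 ± 0.040 in CUS mice, a difference of 0.096 (exact permutation p = 0.0317, adjusted 0.0952).

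Pds5b (ENSMUSG00000034021, chr5:150673739-150810690, plus strand) had 124, 128, 129.9 and 132 CPM in control mice. In CUS mice it had 106, 123, 114, 107 and 107 CPM. All 5 CUS mice lay below the lowest control, though CUS mouse 2 (122.6 CPM) and control mouse 1 (123.7 CPM) were close. Pds5b was the only member whose groups did not overlap, which held for 8.76% of all genes tested and, with CUS lower, for 4.7%. The log2 fold change was -0.21 (SE 0.06), and the FDR of 0.0622 in edgeR's quasi-likelihood test missed the threshold.

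The call for Pds5b depended on the test. Without CUS mouse 2 it passed (FDR 0.0366, with 3.32% of all genes called). With all mice it passed with edgeR's likelihood ratio test, which the study's methods name (FDR 0.0376, with 7.23% of all genes called). It also passed with DESeq2 (FDR 0.0110, 7.68% called) and without TMM factors (FDR 0.0358, 4.43% called). In simulated bulk counts at an FDR of 0.05, 15.6 to 21.3% of the calls of the likelihood ratio test were false. For DESeq2 this was 14.8 to 17.1%, and for the quasi-likelihood test 6.86 to 20%. Leaving out control mouse 3 brought 4 members past the threshold, with FDR of 0.0472 for Smc1a, 0.0492 for Stag2, 0.0414 for Wapl and 0.0471 for Pds5b, where 8.1% of all genes were called. At an unadjusted p below 0.05, which 21.5% of all genes reached in edgeR, there were 4 members: Stag1, Stag2, Wapl and Pds5b.

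Summed levels of some lists of cell type markers moved with the groups in bulk as well. The summed level of 7 excitatory neuron markers was 1968 to 2572 CPM in control and 2696 to 2787 CPM in CUS mice, that of 7 striatal markers 646 to 1025.5 against 1134 to 1373 CPM, and that of 5 markers of oligodendrocyte precursor cells (OPCs) 263 to 308 against 223 to 235 CPM. None of these 3 sums overlapped between groups, and 1 gene of each list passed the test: Neurod6 and Pde10a were higher and Ptprz1 was lower. Astrocyte markers overlapped (1661 to 2058 against 1537 to 1852 CPM), with 3 of 7 called lower (Aqp4, Gja1 and Gli3). The sums of all other lists overlapped too, those of the cortical layers included. Of single genes tested, 8.76% did not overlap between groups. The lists are not specific to 1 kind of cell, as the excitatory markers Sv2b and Arpp21 were also enriched in striatal-like nuclei. No marker of these lists was at 0 in every mouse. Their part in the levels of the 10 genes was not tested, and in bulk fewer cells of a type and less RNA per cell cannot be told apart.

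The neighbors of the 10 genes in these pathways were looked at through 4 lists with 58 genes in all, to be read against the 3.29% of all genes called in bulk. Of 12 other cohesin genes, 10 were tested in bulk and none passed (median log2 fold change -0.010), and the largest change was that of the meiotic kleisin Rec8 (-0.37, edgeR FDR 0.519). Of 14 condensin and SMC5/6 genes, 14 were tested and 1 fell, the condensin II subunit Ncapg2, from 8.32 ± 1.06 CPM (n = 4) to 6.04 ± 0.54 CPM (n = 5) (log2 fold change -0.46, SE 0.10, edgeR FDR 0.0368). Ncapg of condensin I had the largest change of that list, -0.81, at an FDR of 0.188.

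Among 13 other looping and insulator factors, 12 were tested and 1 rose: Zfp143, a zinc finger factor bound at promoters, went from 10.8 ± 0.58 to 14.2 ± 0.61 CPM (log2 fold change 0.39, SE 0.07, edgeR FDR 0.0129). Of 19 relatives of YY1 and subunits of the INO80 and Polycomb complexes, 18 were tested, 1 rose and 2 fell. Actr8 of INO80 went from 39.8 ± 1.56 to 48.5 ± 2.74 CPM (log2 0.29, FDR 0.0216), and the YY1-binding Polycomb protein Rybp from 63.7 ± 1.86 to 52.2 ± 4.58 CPM (log2 -0.29, FDR 0.0367). Mbtd1, a chromatin reader of the MBT family, went from 120.3 ± 5.65 to 103.7 ± 4.68 CPM (log2 -0.21, FDR 0.04997). The largest change of that list was Tfpt of INO80 (0.33, FDR 0.0804), and the lists had a median log2 fold change of -0.063 (condensin), 0.050 (looping) and -0.018 (YY1 relatives). The 5 called genes kept their direction under 5 other settings and without each of 9 mice, but with a replicate block only Zfp143 stayed called (edgeR FDR of at most 0.0886 for Rybp, Actr8 and Ncapg2 and 0.144 for Mbtd1), and Mbtd1 was also not called without a filter on low counts. Of the 9 fits without a mouse, Zfp143 was called in 8 (not without control mouse 2), Actr8 in 6, and Ncapg2, Rybp and Mbtd1 in 3 each.

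In the neocortex, the UMIs of all kept nuclei of a mouse were first summed, without regard to cell type. No member passed (edgeR, FDR of 0.05), where 0% of 16668 genes did, with 7.49% of genes and 1 member, Yy1, at an unadjusted p below 0.05. All 10 members had a log2 fold change below 0, against 48.6% of all genes, although Smc1a (0.02) and Rad21 (0.0098) lay above 0 without TMM factors. The median was -0.11 over the members and 0.0069 over all genes.

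Yy1 had 76.9, 67.0, 69.6 and 65.9 CPM in control mice, here counted in UMIs. In CUS mice it had 54.0, 54.0, 61.6 and 58.8 CPM. All 4 CUS mice lay below all 4 controls, which held for 2.09% of all genes. The log2 fold change was -0.29 (SE 0.10), with an FDR of 0.660 in edgeR over 16668 genes.

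Wapl was the other member without overlap, with 129.97, 129, 129 and 132 CPM in control mice and 108, 114, 119 and 117 CPM in CUS mice. The controls stood close together and the CUS mice were lower by a log2 fold change of -0.18 (SE 0.09, FDR 0.663 in edgeR). Ctcf had 112 ± 11.02 CPM in control and 109 ± 8.39 CPM in CUS mice (n = 4 each), and Pds5b 211 ± 13.9 against 191 ± 28.0 CPM, both overlapping. In these libraries the summed level of 6 choroid plexus markers was 13.5 to 21.9 CPM in control and 25.1 to 261 CPM in CUS mice. That of 5 markers of Vip interneurons was 354 to 373 against 286 to 343 CPM. A list of 5 genes meant for Ndnf interneurons summed to 263 to 295 against 298 to 306 CPM. This last sum does not stand for Ndnf interneurons alone. Its gene Lamp5 was also a leading gene of Ex_L2/3-like nuclei, and Eya4 one of Inh_Pv-like nuclei. The part of these sums in the result was not tested.

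The nuclei were then clustered and split into classes from marker genes and leading genes. Of the classes with over 200 nuclei, 14 were excitatory-like, 6 inhibitory-like and 4 astrocyte-like, oligodendrocyte-like, OPC-like or striatal-like. Excitatory-like nuclei numbered 17855, inhibitory-like nuclei, without the striatal-like class, 4114, and non-neuronal-like nuclei, a few oligodendrocyte and endothelial nuclei of smaller classes included, 2401. The non-neuronal-like nuclei hold no class of microglia.

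Over all excitatory-like nuclei, Yy1 had 77.7, 62.3, 67.9 and 65.1 CPM in control mice. In CUS mice it had 50.6, 49.1, 57.1 and 57.6 CPM, from 3036 UMIs in all 8 mice. Again all CUS mice lay below all controls, which held for 2.93% of the 5320 genes tested. The means were 68.3 ± 6.69 and 53.6 ± 4.36 CPM (SD, n = 4 each), with a log2 fold change of -0.34 (SE 0.10). The FDR was 0.499 in edgeR, so Yy1 was not called at the FDR of 0.2 used for nuclei classes, which 0.0376% of genes passed. Yy1 was the only member at an unadjusted p below 0.05, which 9.64% of genes reached. Without CUS mouse 2 the log2 fold change was -0.31 at an FDR of 0.150, which passed, as did 14.1% of the 4954 genes tested without that mouse.

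Wapl had 125.5, 122.8, 128.3 and 128.4 CPM in control and 105.1, 108.7, 121.0 and 115.5 CPM in CUS mice over the same nuclei. Its groups did not overlap either, at a log2 fold change of -0.16 (SE 0.08, edgeR FDR 0.532). Ctcf had 119.0, 88.9, 117.0 and 121.6 CPM in control and 118.7, 115.2, 105.9 and 101.5 CPM in CUS mice, a log2 fold change of -0.013 (edgeR FDR 0.963). Control mouse 2 stood apart for Ctcf, and all CUS mice lay within the range of the controls. The remaining 7 members overlapped between groups, with log2 fold changes from -0.16 (Stag2) to 0.0071 (Rad21), and 7 of all 10 members lay below 0, against 48.4% of genes. Choroid plexus markers summed to 5.16 to 12.2 CPM in control and 19.5 to 84.7 CPM in CUS mice in these nuclei too, and their part was not tested.

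In inhibitory-like nuclei, Yy1 had 63.4, 61.5, 69.3 and 68.5 CPM in control mice and 77.5, 73.2, 78.2 and 68.7 CPM in CUS mice, from 620 UMIs. CUS mice 1 to 3 lay above all controls and CUS mouse 4 within their range, at a log2 fold change of 0.18 (SE 0.14, edgeR FDR 0.865; 0.0643% of 4666 genes were called). In non-neuronal-like nuclei Yy1 and Rad21 fell under the filter on low counts and were not tested (0.0339% of 2946 genes were called). Yy1 had 65.5 to 86.4 CPM there in control and 53.6 to 84.3 CPM in CUS mice.

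**Figure D2:**
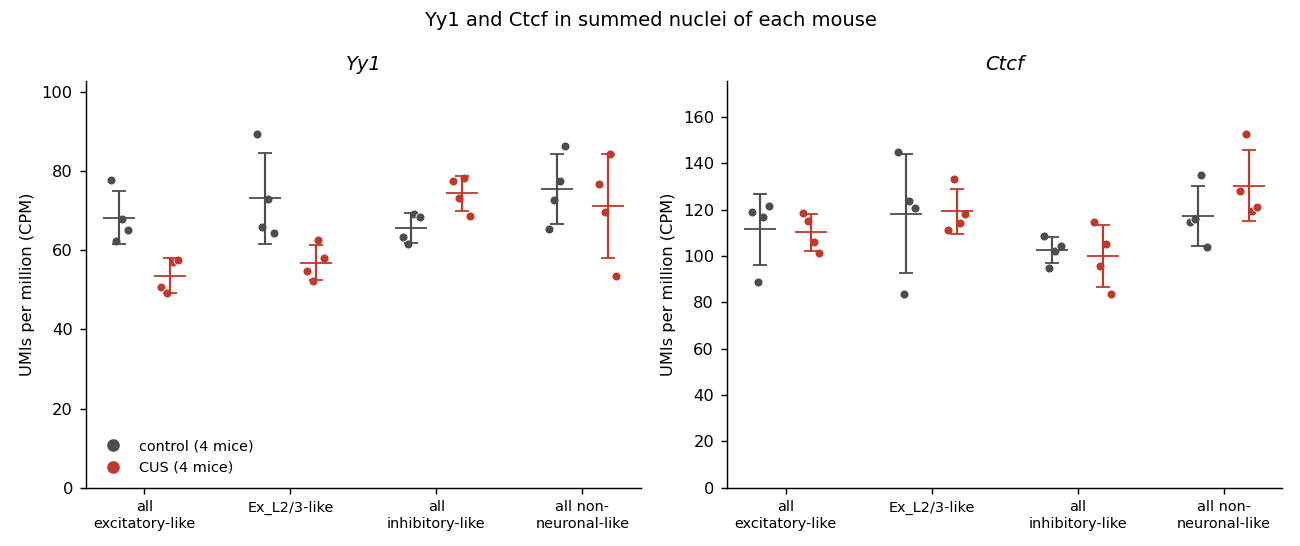
Levels of Yy1 and Ctcf in each mouse, as CPM of UMIs (y axes, from 0), in all excitatory-like, Ex_L2/3-like, all inhibitory-like and all non-neuronal-like nuclei of 4 control and 4 CUS mice; points are mice and bars the group mean with SD. Yy1 separates the groups in excitatory-like nuclei (62.3 to 77.7 CPM in control, 49.1 to 57.6 CPM in CUS mice) and Ex_L2/3-like nuclei, whereas Ctcf overlaps in all 4.

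Whether the CUS effect on Yy1 differed between both kinds of neuron was tested directly, as the difference of the CUS effects within one fit. The excitatory minus the inhibitory effect was -0.50 on the log2 scale (SE 0.14, 95% interval -0.77 to -0.22). Over 13982 genes the edgeR FDR was 0.234, so the difference was not called at 0.05, which 0.0572% of genes passed. Within each mouse, the log2 ratio of Yy1 in excitatory-like to inhibitory-like nuclei was 0.29, 0.018, -0.029 and -0.073 in control mice and -0.62, -0.58, -0.45 and -0.26 in CUS mice. The excitatory level was thus the lower one in 2 of 4 control mice, by little, and in 4 of 4 CUS mice. The ratio of control mouse 1 was slightly further above 0 than that of CUS mouse 4 was below it. All CUS ratios lay below all control ratios, as they did for 2.05% of 13247 genes with UMIs in both kinds of neuron in every mouse.

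Stag1 was the only other member whose ratio did not overlap, again with CUS mice lower, with 0.13, 0.082, 0.20 and 0.20 in control mice and -0.097, 0.046, 0.077 and -0.062 in CUS mice. Its difference between effects was -0.16 (SE 0.09, edgeR FDR 0.818). The ratio of the other 8 members overlapped, and their differences had FDR of 0.907 or more.

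Upper-layer neurons were looked at separately, as the study had singled out Yy1 in layer 2/3 neurons of these same mice. Values of Yy1 in them are thus no independent support for the study's finding. The Ex_L2/3-like class was the largest (3708 nuclei, named from Cux2, Rasgrf2 and other layer 2/3 markers). Yy1 had 89.4, 65.9, 73.0 and 64.3 CPM in control mice and 54.8, 52.2, 62.5 and 57.9 CPM in CUS mice, from 696 UMIs. The groups did not overlap, with CUS lower, as for 2.84% of 5390 genes. Control mouse 1 was the highest, and the lowest control (64.3 CPM) was close to the highest CUS mouse (62.5 CPM). The log2 fold change of -0.35 (SE 0.15, FDR 0.382 in edgeR) was not called, where 0.872% of genes were, and Yy1 was the only member at an unadjusted p below 0.05, against 11.5% of genes.

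Wapl in these nuclei had 140.4, 118.7, 117.0 and 139.0 CPM in control and 109.6, 108.6, 116.2 and 105.4 CPM in CUS mice. Its groups were separated by less than 1 CPM, and the log2 fold change was -0.21 (SE 0.13, edgeR FDR 0.515). Pds5b had 241, 236, 239 and 226 CPM in control mice and 174, 178, 220.1 and 242 CPM in CUS mice, so that CUS mouse 4 lay above all controls (log2 -0.21, edgeR FDR 0.532). Ctcf had 145, 83.5, 124 and 120.7 CPM against 111, 133, 114 and 118 CPM (log2 0.028, SE 0.15, edgeR FDR 0.961), and the CUS mice lay inside the wide range of the controls. Over the 10 members 6 of the log2 fold changes lay below 0, against 47.1% of genes, and choroid plexus markers summed to 2.32 to 8.50 CPM in control and 16.8 to 29.9 CPM in CUS mice.

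The CUS effect on Yy1 in Ex_L2/3-like nuclei was also compared with that in the other 14147 excitatory-like nuclei. It differed by -0.029 on the log2 scale (SE 0.14, 95% interval -0.30 to 0.24, edgeR FDR 0.998). No difference was seen, but the interval leaves room for one in either direction. No member passed in this comparison, where 0.0603% of 13276 genes did.

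Over the single classes, 235 pairs of a member and a class were tested and none was called (edgeR, FDR of 0.2 within a class), where 0.106% of 112502 pairs of any gene and class were. The pairs under the filter were 5: Yy1 in astrocyte-like nuclei and the class led by Nefm, Rad21 in Inh_Sst-like and astrocyte-like nuclei, and Stag2 in the class led by Nefm. At an unadjusted p below 0.05 there were 7 of the 235 pairs, a smaller share than the 6.03% of all pairs of any gene and class. All 7 were lower in CUS mice, namely Yy1 in claustrum-like (log2 -0.92, 88 UMIs, FDR 0.607) and Ex_L2/3-like nuclei, Wapl in the class led by Fyb2 (-0.69), Stag2 in that led by Tshz2 (-0.65), Stag1 in Ex_L4-like nuclei (-0.31), Smc3 in Inh_Pv-like nuclei (-0.48) and Ctcf in the class led by Pbx3 (-1.01, 63 UMIs). How many of all pairs of any gene at that p were lower was not counted. The classes share the same 8 mice, so they do not repeat the comparison.

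Yy1 lay below 0 in 13 of 13 excitatory-like classes tested, from -0.92 to -0.15 with a median of -0.33. Of 3505 genes tested in all of the same 13 classes, 4.85% lay below 0 in every one. With the most UMIs after Ex_L2/3-like nuclei, Ex_L4-like nuclei had a log2 fold change of -0.33 (SE 0.16) and Ex_L6-like nuclei one of -0.27 (SE 0.19). In inhibitory-like classes Yy1 lay below 0 in 2 of 6, with a median of 0.26 and the highest values in the class led by Pbx3 (0.62, 35 UMIs) and in Inh_Pv-like nuclei (0.52, SE 0.26, edgeR FDR 0.960). It lay below 0 in 2 of 3 of the other classes.

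Among the other members, Wapl lay below 0 in 13 of 14 excitatory-like classes and Stag1 in 12. Of 2112 genes tested in all 14, 9.42% lay below 0 in at least 13 and 16.8% in at least 12. Smc3 lay below 0 in 10 of 14, Stag2 in 10 of 13, Rad21 in 9 of 14 and Pds5b in 8. Ctcf (7), Smc1a (6) and Nipbl (5) were spread around 0. In the plot of changes by class, Yy1 and Wapl are the members whose excitatory-like classes lean most to one side.

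**Figure D3:**
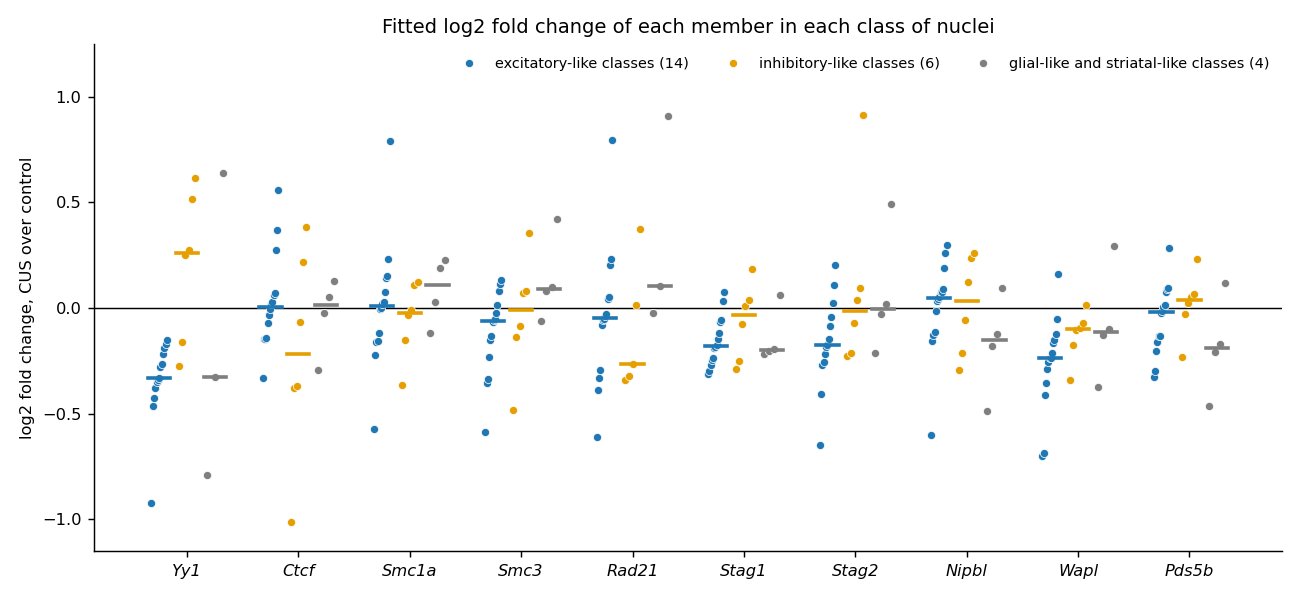
Log2 fold change, CUS against control, of the 10 genes in each class of over 200 nuclei in which they were tested (edgeR quasi-likelihood fit; 14 excitatory-like, 6 inhibitory-like and 4 other classes); each point is a class. The excitatory-like points of Yy1 lie between -0.92 and -0.15, all below the line at 0, and none of the points of any gene passed an FDR of 0.2.

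The level of Yy1 also shows as the share of nuclei with a Yy1 UMI. In Ex_L2/3-like nuclei, 580 of 3708 held 1 (15.6%), at a mean of 1.2 UMIs in those nuclei. The share was 17.4, 18.1, 19.1 and 16.5% in control mice and 13.4, 10.4, 14.1 and 14.99% in CUS mice. All CUS mice lay below all controls, as for 4.6% of 5390 genes, with means of 17.8 ± 1.08% and 13.2 ± 2.00% (SD, n = 4 each), a difference of -4.57 percentage points. By the two-sided exact permutation test p was 0.0286, the least that 4 against 4 mice allow, and 0.286 after adjustment over the 40 pairs of member and class. As the study had compared this share in the same mice, this p is no independent support.

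As a deeper nucleus is likelier to show a UMI, each nucleus was also thinned to 1000 UMIs and 3506 nuclei were kept. The share was then 7.09 ± 1.03% in control and 5.39 ± 0.523% in CUS mice (exact permutation p = 0.0571, adjusted 0.508), with CUS mouse 3 (6.09%) above control mouse 4 (5.99%). Thinning lowers every share, and the share in CUS mice was 0.743 times that in control mice before and 0.760 times after it. Median depths of these nuclei before thinning were 2232 to 2858 UMIs in control and 2219.5 to 2636 UMIs in CUS mice.

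Over all excitatory-like nuclei the share was 16.1 ± 1.63% in control and 11.9 ± 2.00% in CUS mice, and 6.43 ± 0.540% against 5.09 ± 0.446% after thinning. Neither pair of groups overlapped (exact permutation p = 0.0286 for both, adjusted 0.286 and 0.508). With CUS mice lower, this held for 3.48% of 5320 genes before and 2.99% after thinning. In inhibitory-like nuclei the shares of 12.7 ± 2.07% and 12.8 ± 1.33% overlapped (exact permutation p = 0.943). After thinning they were 6.06 ± 0.469% and 7.16 ± 0.427%, with CUS mice higher without overlap (exact permutation p = 0.0286, adjusted 0.508), as for 1.16% of 4666 genes. In non-neuronal-like nuclei, of median depth 1031 to 1484.5 UMIs in control mice, the shares were 9.00 and 8.22%, and 6.19 and 6.38% after thinning. Yy1 was found in every class, so no class gives the share that free RNA alone would produce.

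**Figure D4:**
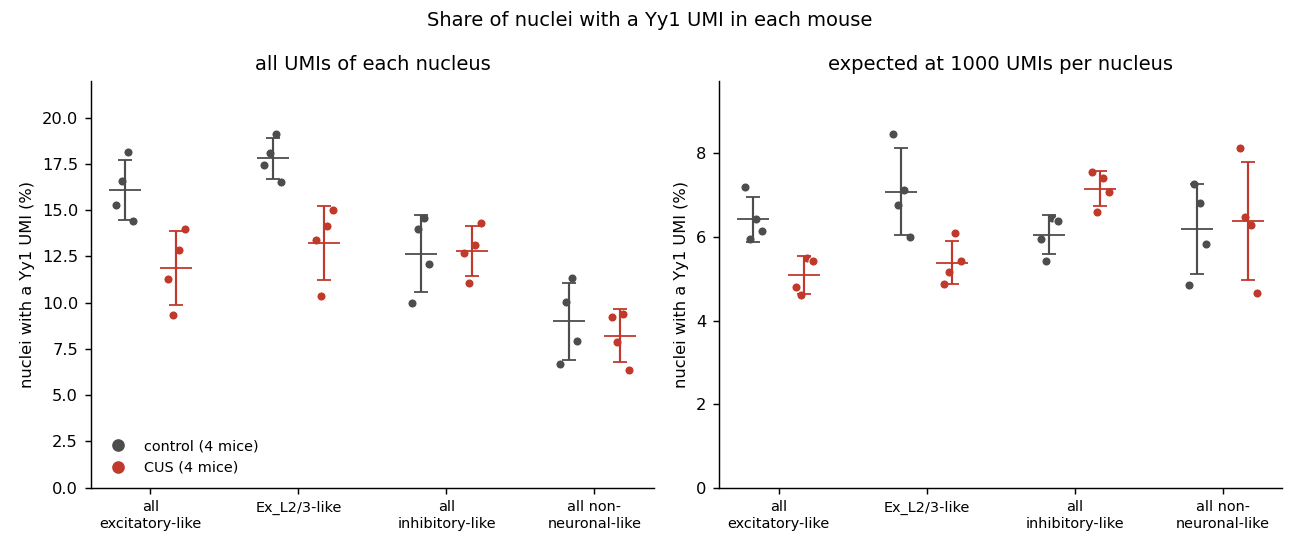
Share of nuclei with a Yy1 UMI in each mouse (percent, y axes from 0), with all UMIs and after thinning each nucleus to 1000 UMIs, in 4 kinds of nuclei of 4 control and 4 CUS mice; points are mice and bars the group mean with SD. In all excitatory-like nuclei the groups do not overlap in either panel, whereas in Ex_L2/3-like nuclei they overlap after thinning and in inhibitory-like nuclei the CUS mice lie higher after thinning.

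Of the pairs of the other 9 members, 2 reached the smallest p before thinning, both with CUS mice lower. Wapl was found in 29.0% of Ex_L2/3-like nuclei of control and 23.7% of CUS mice (exact permutation p = 0.0286, adjusted 0.286), a separation that 4.6% of genes showed there. After thinning its shares were 11.9 and 10.4% (exact permutation p = 0.0857). Smc3 was found in 29.7 and 24.0% of inhibitory-like nuclei (exact permutation p = 0.0286, adjusted 0.286), a separation that 1.89% of genes showed there, and thinning raised this p to 0.257.

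The within-mouse ratios of Yy1 to Ctcf and of Nipbl to Wapl pointed the same way in nuclei as in bulk, but passed no adjusted threshold. Neither of these ratios was without overlap in both assays. How often ratios of other genes separate the groups was not counted. The log2 ratio of Yy1 to Ctcf was -0.70 ± 0.17 in control and -1.04 ± 0.22 in CUS mice over excitatory-like nuclei (exact permutation p = 0.0857, adjusted 0.129). That of Nipbl to Wapl was 1.26 ± 0.041 and 1.43 ± 0.12, without overlap (exact permutation p = 0.0286, adjusted 0.0952). The ratio of Stag1 to Stag2 differed by -0.014 in excitatory-like and 0.0056 in Ex_L2/3-like nuclei, well within its spread.

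Across the 24 classes, each member was found in all of them. Levels of a gene are compared here only between classes, not with other genes, as the UMI count depends on the transcript. Yy1 ran from 87.6 ± 31.5 CPM in OPC-like to 47.8 ± 13.2 CPM in Ex_L5-like nuclei (SD over 8 mice), 1.83-fold. In the order from highest to lowest, OPC-like nuclei were followed by Inh_Ndnf-like (77.04), the inhibitory class led by C130073E24Rik (76.4) and Inh_Sst-like nuclei (73.7 CPM). Ex_L2/3-like nuclei stood 11th at 65.0 ± 11.9 CPM, near astrocyte-like (66.7) and Oligo_Opalin-like nuclei (66.6 CPM). None of the 23 neighbors in this order differed by more than the larger of their SDs. This order pools both groups and did not hold within them. Over the 4 control mice alone, claustrum-like nuclei stood first (87.2 ± 16.6 CPM), Ex_L2/3-like nuclei 6th (73.1 ± 11.5 CPM), OPC-like nuclei 13th (68.1 ± 14.3 CPM) and the inhibitory class led by Pbx3 last (42.7 ± 22.2 CPM).

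Nipbl ran from 482.5 ± 60.8 CPM in astrocyte-like nuclei, followed by OPC-like (424 CPM) and Oligo_Opalin-like nuclei (414 CPM), to 274 ± 72.3 CPM in the class led by Angpt1 and 229 ± 248 CPM in the class led by Nefm. These glial-like classes held the top of the order, as in the plot of levels by class, and did so over the control mice alone (500.8, 405 and 484 CPM), whereas over the CUS mice Oligo_Opalin-like nuclei stood 9th (344 CPM). The class led by Nefm had only 221 nuclei and 51 UMIs of Nipbl, so its levels are uncertain. Without it, the highest level was 1.36 (Stag1) to 2.93 (Rad21) times the lowest. Neighbors further apart than the larger SD were 1 pair for Smc1a and 1 for Stag1, both with the class led by Nefm, and none for the other 8 genes.

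**Figure D5:**
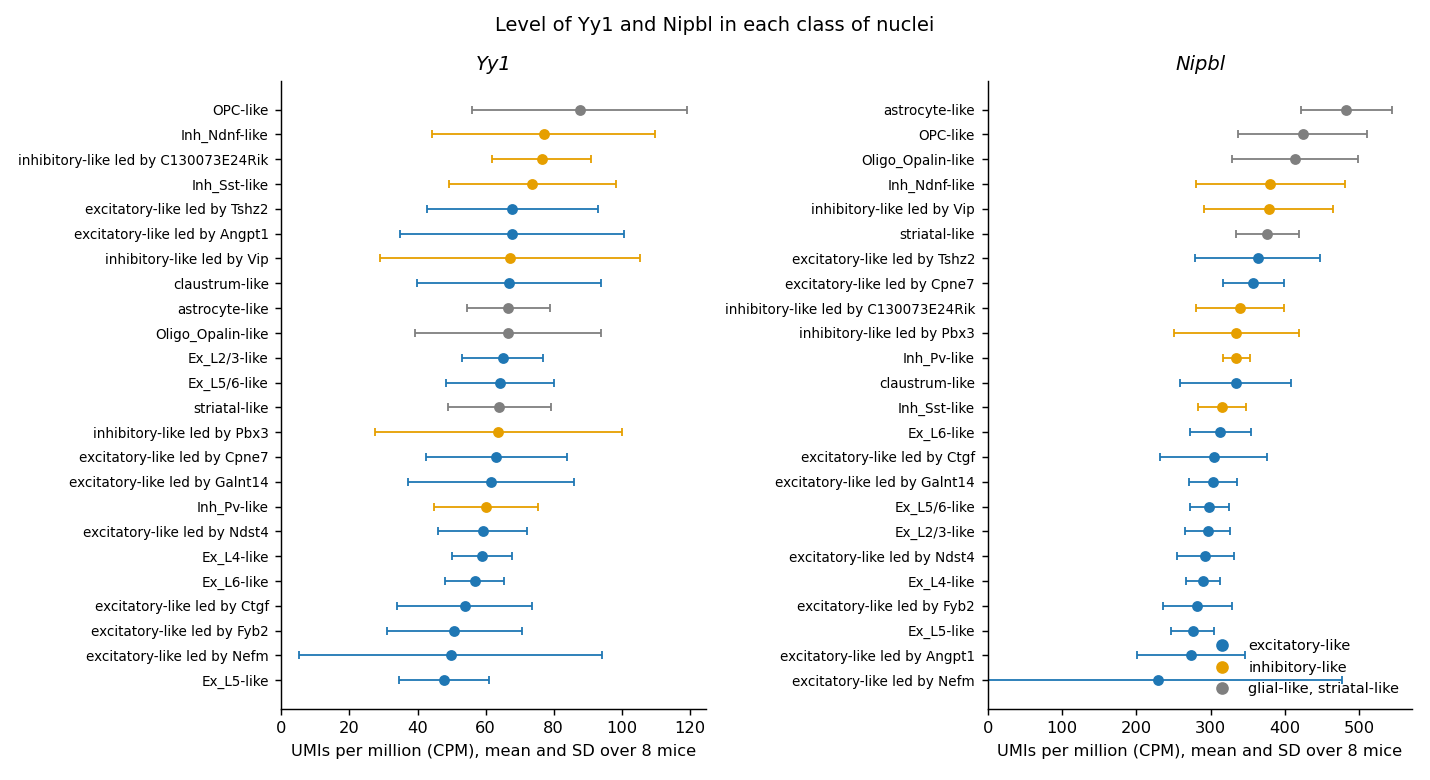
Levels of Yy1 and Nipbl in the 24 classes of over 200 nuclei, as CPM of UMIs; points are the mean over 8 mice (4 control, 4 CUS), bars the SD, and classes are sorted by level over both groups. Yy1 spans 47.8 to 87.6 CPM with wide SDs, and Nipbl is highest in astrocyte-like, OPC-like and Oligo_Opalin-like nuclei (414 to 482.5 CPM).

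Summed over broad kinds of nuclei, Smc1a had 109 ± 9.03 CPM in excitatory-like, 157 ± 23.6 CPM in inhibitory-like and 180.0 ± 53.1 CPM in non-neuronal-like nuclei (SD, 8 mice). Excitatory-like nuclei were lower than both in 8 of 8 mice for Smc1a, Smc3 and Stag2. Pds5b was highest in inhibitory-like nuclei, 245 ± 28.0 CPM against 188 ± 19.1 CPM in excitatory-like and 179.6 ± 22.1 CPM in non-neuronal-like nuclei, and the first difference held in 8 of 8 mice. Nipbl had 303, 338 and 467 CPM, with excitatory-like below non-neuronal-like nuclei in every mouse. Ctcf and Stag1 went the other way between neurons, with excitatory above inhibitory nuclei in 7 and 6 of 8 mice (111 against 101 CPM and 244.5 against 232 CPM).

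Over the 24 classes, the genes whose level was most like that of Yy1, by Pearson correlation of log2(CPM + 1) among 8087 genes, were Arf4 (0.85), 2610316D01Rik (0.82), Mcmbp (0.79), Tmem41b (0.78) and Stt3a (0.76). Those most like Ctcf were Mien1 (0.90), Letm1 (0.84), Arl6ip1 (0.84), Rbm27 (0.84) and Rsrc2 (0.84). Yy1 and Ctcf themselves had a correlation of -0.058, and the member most like Yy1 was Nipbl (0.65, rank 50) and most like Ctcf was Wapl (0.81, rank 14). These points share libraries and differ in depth, and the lists rest on the thin class led by Nefm: without it 1 of 5 genes remained for Yy1 (Arf4) and 1 of 5 for Ctcf (Mien1), and the correlation of Yy1 with Ctcf was 0.31. Over the control mice alone 0 of 5 remained for either gene.

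Of the 58 genes of the 4 pathway lists, 48 were tested in all nuclei, 24 in all excitatory-like and 25 in Ex_L2/3-like nuclei, and none of those tested passed in edgeR, with 4, 3 and 1 of them at an unadjusted p below 0.05, near or below the shares of all genes (7.49, 9.64 and 11.5%). In all nuclei the medians of the tested list genes were -0.074 (6 other cohesin genes), -0.070 (13 condensin and SMC5/6 genes), -0.0045 (12 looping factors) and -0.0068 (17 YY1 relatives and partners), against 0.0069 over all genes.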

How the data were processed

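The authors deposited whole-number counts, without normalization: reads per gene for each bulk sample, and UMIs per gene and barcode for 5000 barcodes of each mouse in the sNucDrop-seq. Per the study's methods, bulk reads were aligned to mm10 with STAR and uniquely mapped reads were counted with in-house programs, and exonic and intronic UMIs on the predicted strand were counted for nuclei. The submitters' processing notes name STAR, Seurat, edgeR and mm10. The bulk library kit keeps strand. The STAR version, and whether bulk counting used strand or introns, are not given in the sources used here.

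For bulk, edgeR 4.0.16 in R 4.3.3 (with limma 3.58.1) was run with filterByExpr, TMM factors and the quasi-likelihood test with Benjamini-Hochberg adjustment over all genes, at an FDR of 0.05. Barcodes were required to have 600 to 5000 genes and less than 5% of UMIs from mitochondria, and those with a doublet score over 0.2 were dropped, which removed 4788 of 31486 barcodes as likely doublets. Clusters came from Seurat 5.3.0 (2000 variable genes, 50 principal components, 20 neighbors, resolution 1), with doublet scores from scanpy 1.11.5. A class was named after a cell type where at least 3 of its markers were enriched 1.5-fold and 2 were among its 10 leading genes. Inhibitory-like classes without such a type needed only 3 enriched inhibitory markers. Excitatory-like ones needed 3 markers enriched against non-neuronal, striatal and inhibitory nuclei, with Slc17a7 among them and in at least 20% of nuclei. Both kinds are called after their first leading gene. These cut-offs were set after the clusters had been seen, without regard to condition. A mixed cluster of 250 nuclei, led by microglia genes such as Csf1r and Ctss, was left out of the classes. Clusters that got the same name were pooled, as for those led by Tshz2 and those led by Fyb2. In classes of over 200 nuclei, UMIs summed per mouse were tested at an FDR of 0.2, for genes with more UMIs than 10% of the number of nuclei. Shares and ratios were compared with exact permutation tests (scipy 1.17.1), and figures were drawn with matplotlib 3.10.9. Per-mouse levels are CPM with TMM-scaled library sizes.

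The members, the 4 pathway lists and the tests were chosen with earlier results of these data known. Genes named beside the members are list genes called in bulk or nuclei, the gene of each list with the largest change in bulk, the 5 genes most like Yy1 and Ctcf among those with a mean of at least 20 CPM, and markers of lists that moved with the groups. The methods describe 2 batches of nuclei with 2 control and 2 CUS mice each, so batch was balanced over condition, but the labels do not give the batch of a mouse and no batch term was fitted. The methods describe the batch effect as large and fit it, so part of the spread between mice of a group here may be batch, which was not tested. Mice of a group are the replicates. Permutation p-values rank a group difference among relabelings of the mice. The edgeR tests set it against variation between mice, estimated with the help of all tested genes. Libraries of a group differed by more than sampling noise (chi-square per degree of freedom 2.91 to 26.9), so none was counted as a copy. Counting error sets the precision of members with few UMIs, and bulk read numbers include PCR copies. DESeq2 1.42.0, the likelihood ratio test, library totals in place of TMM factors, all genes without a filter, a replicate block, other clusterings and filters, and each mouse left out in turn were tried. Scripts were tested on simulated counts in which 200 genes were changed. The bulk test recovered 2% of log2 changes of 0.3 and 47.5% of changes of 0.5, and 20% and 6.86% of its calls were false. With the likelihood ratio test 21.3% and 15.6% of calls were false, and with DESeq2 16.7% and 14.8%. The test of excitatory against inhibitory effects, with both drawn independently, recovered 0.5% of changes of 0.5. A gene that was not called may thus still have changed, and a called gene may be a false call.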

Additional observations from a re-analysis of the deposited data

Results flagged for a closer look

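In 124 groups of 4 or 5 mice tested for a mouse far from the others of its group (Dixon's criterion), 5 stood out, and chance alone flags about 1 in 20. Ctcf in all excitatory-like nuclei of control mouse 2 was 88.9 CPM, against 117.0 to 121.6 CPM in the other controls. Smc1a in all excitatory-like nuclei of control mouse 1 was 121.0 CPM, against 104.6 to 105.7 CPM. Smc3 in control mouse 1 was 182 CPM in all nuclei (others 142 to 147 CPM) and 175 CPM in all excitatory-like nuclei (others 131 to 138 CPM). Stag1 in all nuclei of control mouse 2 was 298 CPM, against 243 to 248 CPM in the other controls. All 5 were control mice of the nuclei series, and none of these values concerns Yy1, Wapl or Pds5b.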

How the results depend on the processing

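The number of members called in bulk was 0 and rose to 1 (Pds5b) with the likelihood ratio test, without TMM factors and with DESeq2, and ranged from 0 to 4 when a mouse was left out (4 without control mouse 3, 1 without CUS mouse 2). No member was called under the alternatives run for all nuclei (7), the classes (10) and each of the 2 tests of differing effects (7, without DESeq2, the unfiltered fit and the replicate block) or without any mouse, except that Yy1 over all excitatory-like nuclei passed without CUS mouse 2. Replicate numbers did not pair the mice (correlation of same-numbered mice 0.033 to 0.23 in bulk and -0.24 to 0.27 in nuclei), and with a replicate block Pds5b had an edgeR FDR of 0.148 and no member was called.

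Yy1 in Ex_L2/3-like nuclei kept its sign, from -0.39 to -0.29 over 10 other settings (edgeR FDR 0.330 to 0.676) and -0.40 to -0.27 without a mouse. The excitatory minus inhibitory effect of Yy1 was -0.50 to -0.42 (FDR 0.120 to 0.372) and -0.59 to -0.43 without a mouse. Yy1 lay below 0 in every tested excitatory-like class under 17 of 19 settings, the reported one included, and in 11 of 13 without control mouse 3 and 12 of 13 without the doublet filter. The share of Ex_L2/3-like nuclei with a Yy1 UMI differed by -4.82 points with at least 1000 genes per nucleus and by -1.70 after thinning, which lowers every share (exact permutation p = 0.0571 for both; 0.743 times the control share before thinning and 0.760 times after), and by -5.16 to -3.63 without a mouse (p = 0.0571 without control mouse 3, -4.13 points).

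Small values changed sign. The effect of Yy1 in Ex_L2/3-like against other excitatory-like nuclei became 0.077 at resolution 1.5 and 0.11 with at least 1000 genes, and was -0.049 to 0.018 without a mouse. Ctcf in bulk became -0.0075 without TMM factors and was -0.0055 to 0.036 without a mouse. In all nuclei, Smc1a became 0.022 and Rad21 0.0098 without TMM factors, and without a mouse Ctcf was -0.11 to 0.018, Smc1a -0.069 to 0.069 and Rad21 -0.087 to 0.045. The ratio of Stag1 to Stag2 without a mouse differed by -0.0048 to 0.094 in bulk, -0.093 to 0.070 in excitatory-like and -0.14 to 0.13 in Ex_L2/3-like nuclei. The cause of these changes was not tested. Clustering from another random start, the alternatives for the effect in Ex_L2/3-like against other nuclei and those for Yy1 in all excitatory-like nuclei were chosen after seeing the data, as were the alternatives for the called genes of the pathway lists and the orders of levels without the class led by Nefm and within each group. Depth limits the classes: members with under 100 UMIs in a class, such as Yy1 in claustrum-like nuclei (88 UMIs), had SEs of 0.33 or more on the log2 scale.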
